A study of Mus musculus with 15 samples.

Results

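The genes described here are Lpl, Apoe, Cd36, Enpp2, Tmem86a, Fabp3, Fabp4, Fabp5, Plin2 and Hpgd, which act in lipid uptake, lysophospholipid metabolism and prostaglandin breakdown. They are 10 of the 23352 genes in the deposited table, matched there by symbol. They were chosen by their FPKM levels over all 5 groups of these libraries, so their values below are a description, and no p-value is given for any of them. All 10 were found in the table, and 9 of the 10 passed the filter on low values, which asked for 1 FPKM (fragments counted per length of transcript and depth of library) or more in no fewer than 3 of 15 libraries. Fabp4 did not.

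Messenger RNA was sequenced from C2C12 cells, an established mouse myoblast line, that had been transduced with lentivirus. The 5 groups of 3 libraries carried MLX-WT (MLX in its wild-type form), MLX-DN (a dominant negative), an MLX shRNA, a non-targeting shRNA (NT shRNA) or, as the GFP control, a vector for GFP alone. MLX, a transcription factor of the basic helix-loop-helix class, binds DNA with partners such as MondoA and ChREBP. Both overexpressing groups were set against the GFP control and the MLX shRNA group against the NT shRNA. The promoter of the constructs, the number of shRNA sequences, and whether lines were pools or clones are not given in the sources used here, and nothing says that libraries within a group are separate cultures. The SDs and standard errors may therefore be technical.

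The targeted gene followed the labels. Mlx averaged 17.1 ± 0.516 FPKM (SD, n = 3) in the GFP control, 17.1 ± 0.778 with NT shRNA, 3.21 ± 0.645 with MLX shRNA, 644 ± 11.6 with MLX-WT and 394 ± 8.76 with MLX-DN. Estimated depth was 37.0 to 82.7 M reads per library. The 10 myoblast and muscle markers summed to 6105 to 6193 FPKM in the GFP control, 5248 to 5453 with NT shRNA and 6468 to 6600 with MLX-WT. They summed to 5318 to 5563 with MLX-DN and 6248 to 6765 with MLX shRNA. Between the controls single markers moved both ways. Myh3 averaged 941 FPKM in the GFP control and 492 with NT shRNA, and Pax7 0.872 and 2.83. All 10 averaged at least 1 FPKM in some group. Of 12 adipocyte markers 3 reached that level (Pparg, Cebpa and Lipe), with sums of 6.43 to 12.8 FPKM, and Retn was listed at 0 throughout. Of 12 macrophage markers 3 did (Ptprc, Cd68 and Cd14), with sums of 4.63 to 8.78, highest in the MLX-DN libraries (8.11 to 8.78, of which Ptprc gave 4.55 on average), and Emr1 and Tyrobp were at 0 in all 15 libraries. Of 9 fibroblast markers 6 did, and their sum was 551 to 563 FPKM in the GFP control, 333 to 352 with NT shRNA, 253 to 255 in the MLX-WT libraries, 121 to 127 in those with MLX-DN and 110 to 113 in those with MLX shRNA. Of 10 endothelial markers 1 averaged at least 1 FPKM in some group (Egfl7). Sums were 2.04 to 2.50 FPKM in the GFP control and 0.751 to 1.49 in the other groups. Tie1 and Emcn were at 0 throughout. The part of these shifts in the results below, Cd36 and Hpgd among them, was not tested.

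Cells take up lipid in several forms. Lipoprotein lipase (LPL), bound outside the cell, cuts fatty acids from the triglyceride of circulating lipoproteins, and in muscle this is a main supply of fuel. CD36 helps fatty acids across the plasma membrane, fatty acid binding proteins (FABPs) carry them through the cytosol, and PLIN2 coats the droplets in which they are stored. Lysolipids are phospholipids that have lost a fatty acid: autotaxin, the product of Enpp2, turns lysophosphatidylcholine into the signal lysophosphatidic acid, and TMEM86A is a lysoplasmalogenase.

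Promoter windows of 250 bases up to the transcription start were taken from RefSeq (GRCm38.p6) by symbol, and 6 of the 10 genes had one: Apoe, Cd36, Tmem86a, Fabp3, Plin2 and Hpgd. The windows of 4 genes are shown because these genes fell into pairs by level. Tmem86a and Apoe were highest with MLX-WT and lowest with MLX shRNA, while Cd36 and Hpgd were highest in the GFP control. Capitals mark 4 motifs searched on both strands. They were the TATA box, spelled TATAAA, the GC box, spelled GGGCGG, the CCAAT box, and the E-box, which MLX and its partners are known to bind, spelled CACGTG. The windows lie at chr7:47050390-47050639, plus strand (Tmem86a), chr7:19699189-19699438, minus strand (Apoe, the outermost of 3 listed starts), chr5:17835897-17836146, minus strand (Cd36), and chr8:56294302-56294551, plus strand (Hpgd).
Tmem86a: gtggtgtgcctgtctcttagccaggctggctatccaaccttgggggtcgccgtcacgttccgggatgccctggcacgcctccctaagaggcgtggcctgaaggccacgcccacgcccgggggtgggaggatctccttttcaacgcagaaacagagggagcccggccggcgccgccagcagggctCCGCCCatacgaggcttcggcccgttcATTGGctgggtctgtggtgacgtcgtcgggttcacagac
Apoe: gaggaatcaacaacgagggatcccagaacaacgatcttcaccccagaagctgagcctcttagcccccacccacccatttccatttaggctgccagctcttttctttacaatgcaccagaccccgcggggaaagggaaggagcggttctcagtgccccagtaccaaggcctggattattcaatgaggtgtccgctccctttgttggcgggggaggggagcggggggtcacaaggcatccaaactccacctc
Cd36: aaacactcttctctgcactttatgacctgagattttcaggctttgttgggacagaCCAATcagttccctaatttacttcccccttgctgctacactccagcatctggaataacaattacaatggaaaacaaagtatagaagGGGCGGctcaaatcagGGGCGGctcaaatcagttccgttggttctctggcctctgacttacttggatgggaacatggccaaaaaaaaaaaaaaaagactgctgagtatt
Hpgd: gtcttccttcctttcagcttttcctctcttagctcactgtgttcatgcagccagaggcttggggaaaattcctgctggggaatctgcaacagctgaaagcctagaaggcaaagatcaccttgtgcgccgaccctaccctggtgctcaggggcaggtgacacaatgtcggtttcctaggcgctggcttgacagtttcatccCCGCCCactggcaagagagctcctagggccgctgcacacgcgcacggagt

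The Tmem86a window held a GC box 66 to 61 bases before the start and a CCAAT box, read on the minus strand as ATTGG, 39 to 35 bases before it. With 66.8% GC and 21 CG dinucleotides it was richer in both than the median of 32841 mouse windows of the same length (52.4% GC and 6 CG). The Cd36 window was poorer, at 43.2% GC and 3 CG, and held GC boxes 109 to 104 and 93 to 88 bases before the start and a CCAAT box 195 to 191 bases before it. Hpgd had a GC box 50 to 45 bases before its start, and the Apoe window printed held none of the 4 motifs, while that of another Apoe start held TATAAA at 100 to 95 and 96 to 91 bases before it. CACGTG was in none of the 8 windows of the 6 genes, and 6.02% of all windows held it, against 32.8% for the GC box, 33.9% for CCAAT and 12.4% for TATAAA. A match or its absence describes the letters of these windows alone. For Cd36 and Hpgd, a short stretch just after the listed start was not found in the gene's annotated transcripts, so these distances rest on the RefSeq start alone. For the other windows it was found.

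**Figure D1:**
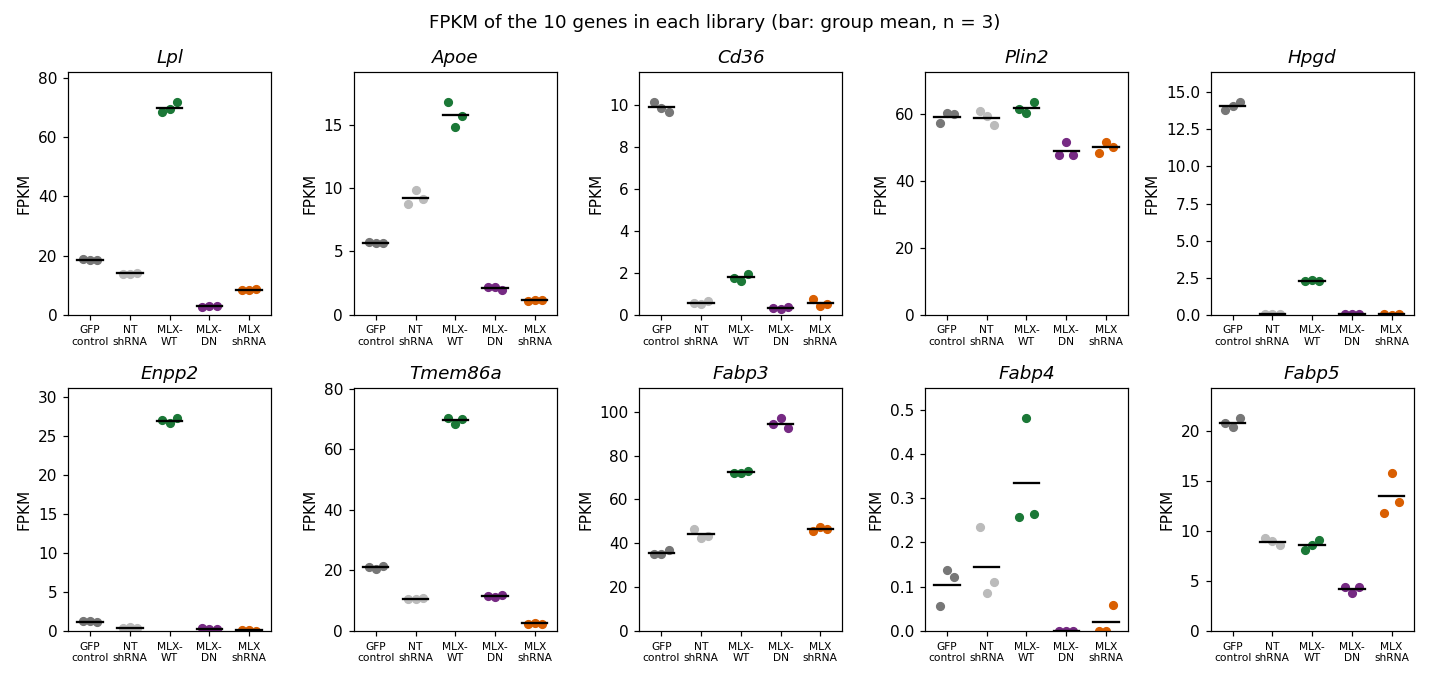
FPKM of each of the 10 genes (vertical axes, linear and each from 0) in the 15 libraries, by group, with a bar at the mean of 3 libraries. Lpl, Apoe, Enpp2 and Tmem86a were highest with MLX-WT, Cd36, Fabp5 and Hpgd in the GFP control and Fabp3 with MLX-DN, while Plin2 moved least.

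Lpl, the lipase itself, was higher with MLX-WT and lower with MLX-DN than in any other group. Its FPKM was 19.0, 18.4 and 18.6 in the GFP control, 68.7, 69.4 and 71.9 with MLX-WT and 2.79, 2.89 and 2.99 with MLX-DN. The NT shRNA libraries gave 13.89, 13.95 and 14.09 FPKM and the MLX shRNA libraries 8.41, 8.40 and 8.84. No neighbouring groups overlapped in the order MLX-WT, GFP control, NT shRNA, MLX shRNA, MLX-DN. The ratio of mean FPKM was 3.75 for MLX-WT over the GFP control (1.80 on the log2(FPKM + 2) scale, SE 0.03) and 6.46 for the GFP control over MLX-DN (log2 difference -2.08). With MLX shRNA the mean was lower than with NT shRNA, whose level was 1.64 times as high (log2 difference -0.60). The span from MLX-DN to MLX-WT was 24.2-fold. In bulk samples such as these, fewer cells of a type and less RNA per cell cannot be told apart.

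Apoe encodes apolipoprotein E, the ligand by which lipoprotein remnants bind LDL-receptor family members. It stood at 5.72, 5.67 and 5.67 FPKM in the GFP control, 16.8, 14.8 and 15.7 with MLX-WT and 2.21, 2.23 and 1.94 with MLX-DN. With NT shRNA it was 8.78, 9.83 and 9.11 FPKM, and with MLX shRNA 1.12, 1.16 and 1.16. The 5 groups did not overlap, and Apoe, unlike Lpl, was lower with MLX shRNA than with MLX-DN. Its mean was 2.77 times the GFP control's with MLX-WT (log2 difference 1.21, SE 0.04), and the GFP control's mean was 2.67 times that of MLX-DN (log2 difference -0.90). The NT shRNA mean was 8.04 times that of MLX shRNA (log2 difference -1.83). The controls themselves differed: NT shRNA was 1.63 times the GFP control, and MLX-WT was 1.71 times NT shRNA.

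Genes that act on the same step did not share the order of Lpl. Lmf1, which helps LPL fold, fell with MLX-WT (log2 difference -0.43) and MLX-DN (-0.51) against the GFP control's 12.7 FPKM. Gpihbp1, the endothelial anchor of LPL, was listed at 0 in all 3 libraries of the GFP control, MLX-WT and MLX-DN. Angptl4, a secreted LPL inhibitor, averaged 19.8 FPKM in the GFP control, 27.0 with MLX-WT, 39.5 with MLX-DN, 50.0 with NT shRNA and 51.7 with MLX shRNA. Its rises of 0.41 and 0.93 (log2) over the GFP control with MLX-WT and MLX-DN passed the limma test, and so did the 1.26 by which the NT shRNA stood above that control.

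Enpp2 had the greatest rise of the 10 genes with MLX-WT. It was 1.27, 1.29 and 1.10 FPKM in the GFP control and 27.0, 26.6 and 27.2 with MLX-WT. With MLX-DN it was 0.365, 0.259 and 0.287 FPKM, with NT shRNA 0.342, 0.531 and 0.406, and with MLX shRNA 0.0899, 0.108 and 0.0531. MLX-WT stood apart from every other library, while NT shRNA and MLX-DN overlapped and the MLX shRNA libraries were lowest. The MLX-WT mean was 22.1 times that of the GFP control, with a log2 difference of 3.17 (SE 0.03). The low groups rest on few reads: an estimated 9 to 13 per library with MLX shRNA and 44 to 95 with NT shRNA, against 4688 to 6726 with MLX-WT. The offset of 2 in the log2 scale compresses such values, so that the 5.10-fold ratio of NT shRNA to MLX shRNA is a log2 difference of -0.22. Exons of Enpp2 shared 5.97% of their bases with the opposite-strand gene Gm26684.

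Tmem86a had the widest range on the log2(FPKM + 2) scale, 3.98 between its highest and lowest group. It was 21.2, 20.6 and 21.3 FPKM in the GFP control, 70.1, 68.3 and 70.1 with MLX-WT and 11.5, 11.3 and 11.9 with MLX-DN. With NT shRNA it was 10.7, 10.6 and 10.8 FPKM and with MLX shRNA 2.37, 2.72 and 2.48. Against the GFP control, MLX-WT was 3.30 times as high (log2 difference 1.63, SE 0.03) and MLX-DN lower (-0.77), and MLX shRNA was lower than NT shRNA (-1.49), whose mean was 4.25 times as high. No groups overlapped, yet MLX-DN stood slightly above NT shRNA, by 1.08-fold, so that its place between the controls differs from that of Lpl and Apoe. Tmem86b, the other lysoplasmalogenase gene, had group means of 0.785 to 1.15 FPKM and passed the test in none of the comparisons with a group's own control (log2 differences of 0.07, 0.02 and -0.04, limma adjusted p of 0.0649, 0.617 and 0.228).

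Lpar1, a receptor for the lysophosphatidic acid that autotaxin makes, stayed between 17.9 and 23.7 FPKM in its group means. With MLX-WT it rose by 0.37 on the log2 scale, and MLX-DN gave 0.30, while in the MLX shRNA libraries it fell by 0.11. Lpar4, another such receptor, averaged 2.67 FPKM in the GFP control, 1.32 with MLX-WT, 0.425 with MLX-DN, 0.905 with NT shRNA and 0.0574 with MLX shRNA. It fell in all 3 comparisons, by 0.49, 0.95 and 0.50.

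Cd36 was highest in the GFP control and low in every other group, the NT shRNA included. It was 10.1, 9.86 and 9.64 FPKM in the GFP control and 0.583, 0.507 and 0.653 with NT shRNA. With MLX-WT it was 1.75, 1.62 and 1.96 FPKM, with MLX-DN 0.330, 0.286 and 0.382 and with MLX shRNA 0.755, 0.403 and 0.513. The GFP control exceeded NT shRNA 16.99-fold, MLX-WT 5.55-fold and MLX-DN 29.7-fold (log2 differences -2.20, -1.65 and -2.35 from the control, SE 0.05). The MLX shRNA and NT shRNA libraries overlapped (log2 difference -0.02, SE 0.05, and 0.04 after centring each library on its median). Against the NT shRNA, MLX-WT was 3.06 times as high, so whether MLX-WT was higher or lower depended on the control.

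Fabp3, the heart and muscle FABP, had the highest FPKM of the 10 genes in the MLX-DN group. It was 35.0, 34.9 and 36.8 FPKM in the GFP control, 72.2, 71.8 and 73.0 with MLX-WT and 94.2, 96.9 and 92.5 with MLX-DN. NT shRNA gave 46.5, 42.5 and 43.5 FPKM and MLX shRNA 45.4, 47.6 and 46.4. Both MLX-WT (2.03-fold, log2 difference 0.98) and MLX-DN (2.66-fold, 1.36, SE 0.03) lay above the GFP control, and MLX-DN above MLX-WT by 1.31-fold, while MLX shRNA and NT shRNA overlapped. Fabp3 was the 1 gene of the 10 that was higher with MLX-DN than in every library of both controls. Genes on the opposite strand overlapped up to 9.84% of its exon bases, and one of them, Zcchc17, had group means of 25.7 to 29.8 FPKM. The strand setting of the counting was not given in the sources used here.

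Fabp5, the epidermal FABP, had nearly the reverse order. It was 20.8, 20.4 and 21.3 FPKM in the GFP control, 8.10, 8.57 and 9.10 with MLX-WT and 4.36, 3.83 and 4.37 with MLX-DN. It was 9.30, 8.98 and 8.57 FPKM with NT shRNA and 11.8, 15.9 and 12.9 with MLX shRNA. MLX-WT and NT shRNA overlapped, MLX-DN was below all other libraries, and MLX shRNA was above NT shRNA by 1.51-fold (log2 difference 0.50, SE 0.07). Without the second MLX shRNA library that difference was 0.39. Against the GFP control the log2 differences were -1.11 with MLX-WT and -1.88 with MLX-DN.

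Fabp4, the adipocyte FABP, was near the limit of detection. It was listed at 0.259, 0.480 and 0.264 FPKM with MLX-WT, from an estimated 11, 24 and 9 reads, and at 0 in all 3 MLX-DN libraries, where 3 reads would give 0.0709 to 0.0989 FPKM. The GFP control gave 0.0565, 0.137 and 0.121 FPKM and NT shRNA 0.236, 0.0849 and 0.111, from 3 to 6 reads, and MLX shRNA was at 0, 0 and 0.0597. The MLX-WT libraries were above the 12 others, the nearest being an NT shRNA library at 0.236.

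Plin2 varied least. Its FPKM was 57.3, 60.2 and 60.0 in the GFP control, 61.0, 59.4 and 56.6 with NT shRNA and 61.6, 60.2 and 63.6 with MLX-WT. It was 47.8, 51.6 and 47.7 with MLX-DN and 48.3, 51.8 and 50.1 with MLX shRNA. The first 3 groups overlapped one another in part, as did the last 2, and the highest group mean was 1.26 times the lowest. The log2 differences were 0.06 for MLX-WT and -0.26 for MLX-DN against the GFP control and -0.23 for MLX shRNA against NT shRNA (SE 0.04). Plin3, another droplet coat protein, fell in all 3 comparisons (-0.29, -0.39 and -0.36).

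Hpgd encodes the dehydrogenase that starts the breakdown of prostaglandins. It was 13.8, 14.1 and 14.3 FPKM in the GFP control and 2.25, 2.33 and 2.24 with MLX-WT. It was at most 0.0828 FPKM in the other 9 libraries: 0.0733, 0.0738 and 0.0828 with NT shRNA, 0.0530, 0.0778 and 0.0369 with MLX-DN and 0.0616, 0 and 0.0222 with MLX shRNA. The GFP control was 6.18 times as high as MLX-WT (log2 difference -1.91, SE 0.03). It stood above NT shRNA by 2.95 and MLX-DN by 2.97 on the log2 scale. The offset of 2 compresses these last differences, whose ratios of mean FPKM were 184 and 252. The NT shRNA level rested on an estimated 5 to 8 reads, that of MLX-DN on 3 to 7 and that of MLX shRNA on 0 to 4, so these levels lie near the floor of 3 reads. The NT shRNA libraries were above those of MLX shRNA, and MLX-DN overlapped both. Like Cd36, Hpgd was lower with MLX-WT than in the GFP control and higher than with NT shRNA.

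Other prostaglandin genes did not take this order. Ptgs2, the inducible cyclooxygenase, averaged 27.8 FPKM in the GFP control and 49.7 with NT shRNA, and it fell with MLX-WT (to 17.8, log2 difference -0.59) and MLX shRNA (to 18.8, -1.32) but rose with MLX-DN (to 58.1, 1.01). Ptgs1, the constitutive cyclooxygenase, rose in all 3 comparisons with a group's own control (0.27, 1.40 and 0.32). Slco2a1, a prostaglandin transporter, was at most 0.102 FPKM in any library and was not tested.

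**Figure D2:**
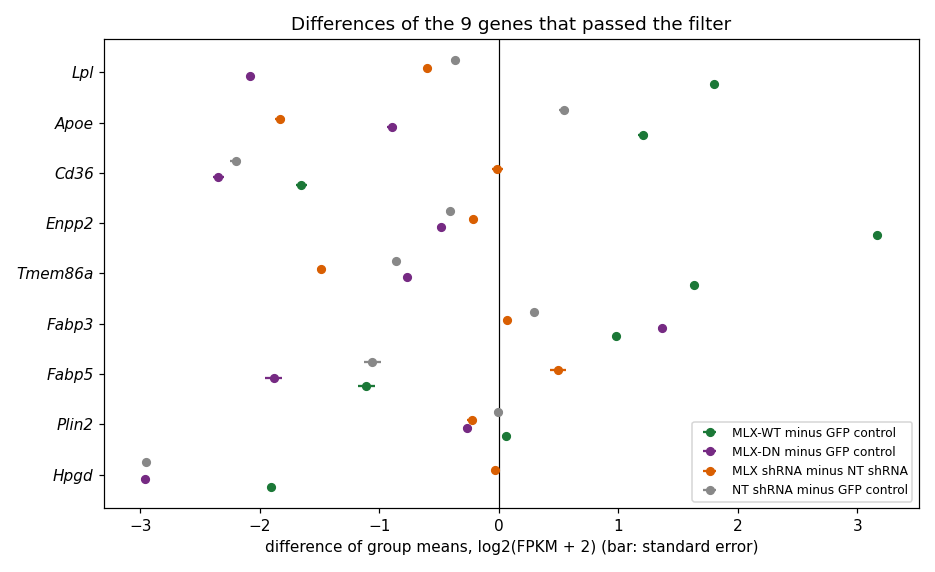
Differences between group means on the log2(FPKM + 2) scale (horizontal axis) for the 9 genes that passed the filter, with bars of 1 standard error. Enpp2 with MLX-WT stood at 3.17 and Hpgd with MLX-DN and with NT shRNA, both against the GFP control, near -3.

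Counted by limma's adjusted p under 0.05, MLX-WT differed from its GFP control in 8 of the 9 tested genes (5 higher, 3 lower), where 70.3% of the 11945 genes tested did (27.6% higher, 42.7% lower). MLX-DN differed from that control in 9 of 9 (1 higher, 8 lower), against 81.4% of all genes (32.6% and 48.8%). MLX shRNA differed from NT shRNA in 6 of 9 (1 higher, 5 lower), against 70.1% (30.8% and 39.3%). NT shRNA differed from the GFP control in 8 of 9 (2 higher, 6 lower), against 74.1% (37.0% and 37.1%). The choice of the genes used these same contrasts, so nothing is read from these counts. MLX-WT and MLX-DN were both set against the same 3 GFP control libraries, as was the NT shRNA. MLX-DN against MLX-WT gave 9 of 9 (1 higher, 8 lower), where 72.1% of all genes were called (33.2% and 38.9%). Against the NT shRNA, MLX-WT gave 7 of 9, all higher, where 69.9% were called (25.7% and 44.3%), and MLX-DN 7 of 9 (2 higher, 5 lower), where 69.7% were (21.0% and 48.7%). Called differences of at least 1 on the log2 scale were found in 7 of 9 genes between MLX-WT and the GFP control (1.67% of all genes), 5 of 9 for MLX-DN (3.87%), 2 of 9 between MLX shRNA and NT shRNA (1.51%) and 3 of 9 between the controls (2.51%). They were found in 5 of 9 between MLX-DN and MLX-WT (1.31%), 4 of 9 between MLX-WT and NT shRNA (1.38%) and 3 of 9 between MLX-DN and NT shRNA (0.444%), and these too were in view when the genes were chosen. The median difference of the 9 was 0.98 for MLX-WT and -0.90 for MLX-DN against the GFP control and -0.22 for MLX shRNA against NT shRNA, where that of all tested genes was -0.05, -0.08 and -0.02.

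The control chosen changed the reading of several genes, so each construct was also placed against all 6 control libraries. Lpl, Apoe, Enpp2, Tmem86a and Fabp3 were above all 6 in every MLX-WT library, 5 of 9 where 12.6% of all genes were, and 0 of 9 were below, where 25.8% were. With MLX-DN, Lpl, Apoe, Cd36, Fabp5 and Plin2 were below all 6 controls (background 36.1%) and Fabp3 above (16.2%). With MLX shRNA, Lpl, Apoe, Enpp2, Tmem86a, Plin2 and Hpgd were below all 6 (28.0%), and 0 of 9 were above (21.0%). Of these, Enpp2 and Hpgd rested on few reads. Among the 9, Lpl and Apoe were thus the pair above both controls when MLX-WT was expressed and below both in the MLX-DN and MLX shRNA groups. The share of all tested genes with this joint pattern was not counted, and the genes were chosen with these levels known. Other genes named in this report, among them Apoc1, Il1rn and Thbs2, had the same pattern.

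**Figure D3:**
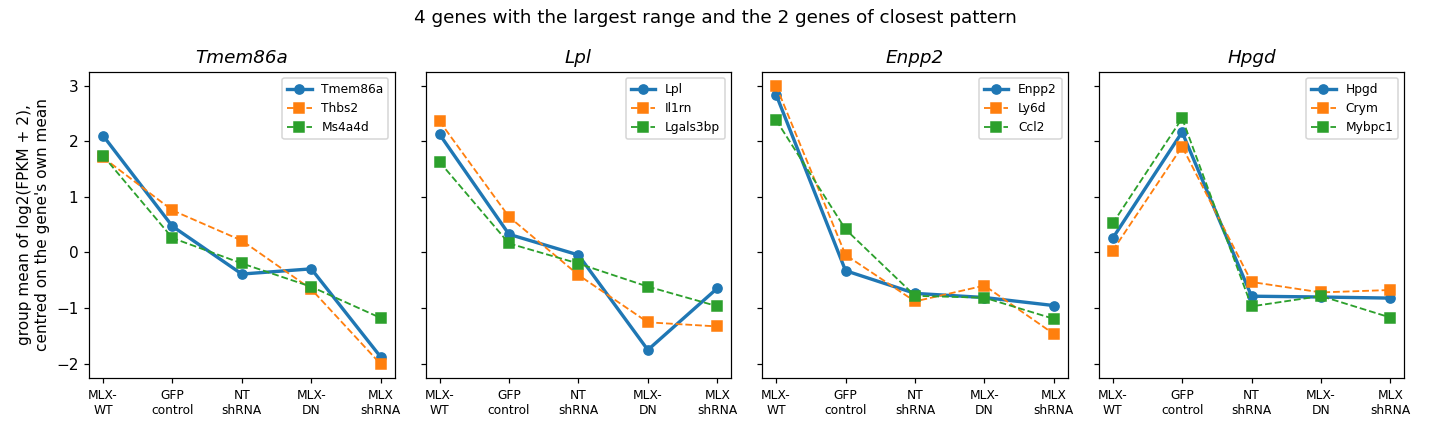
Group means of log2(FPKM + 2), centred on each gene's own mean over the 5 groups (vertical axis), for the 4 genes of largest range and the 2 genes nearest to each. Predicted genes were left out of the search. Tmem86a and Thbs2 were highest with MLX-WT and lowest with MLX shRNA, and Hpgd, Crym and Mybpc1 peaked in the GFP control.

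The genes of most similar pattern were found by the root mean square difference of 5 centred group means on the log2(FPKM + 2) scale. The search ran over the tested genes, leaving out the 10 described here and predicted genes (Gm and Rik names). For Tmem86a they were Thbs2 (0.39), a matricellular glycoprotein, and Ms4a4d (0.40). Thbs2 averaged 151 FPKM with MLX-WT, 77.1 in the GFP control, 52.2 with NT shRNA, 27.6 with MLX-DN and 9.63 with MLX shRNA. For Lpl they were Il1rn (0.45), the interleukin-1 receptor antagonist, and Lgals3bp (0.58), a secreted galectin-3 ligand. For Enpp2 they were Ly6d (0.29) and the chemokine gene Ccl2 (0.41), and Ly6d averaged 44.3 FPKM with MLX-WT against 3.62 in the GFP control. Hpgd had the closest neighbours, Crym (0.21), which encodes mu-crystallin, a thyroid hormone binding protein of muscle, and Mybpc1 (0.24), a thick-filament protein of slow muscle. Cd36 lay 0.30 from Hpgd, while Lpl lay 0.69 from both Apoe and Enpp2.

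**Figure D4:**
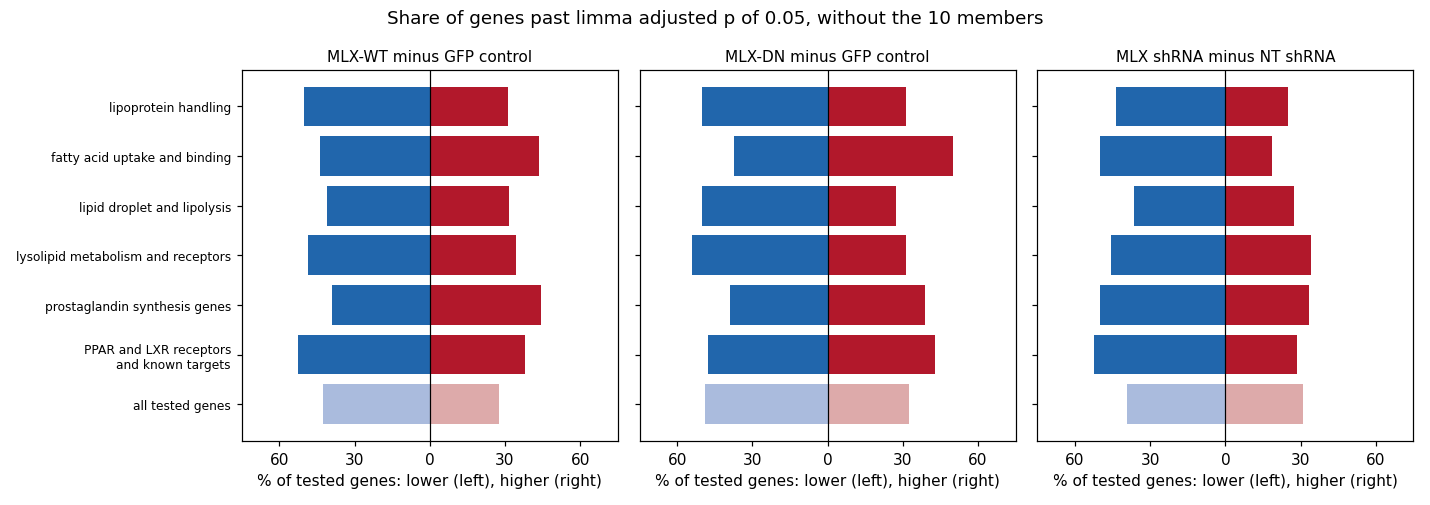
Percent of the tested genes of each list, without the 10 genes described here, that passed limma's adjusted p of 0.05 as higher (right) or lower (left), for the 3 comparisons with a group's own control. The last bar pair shows all 11945 tested genes, of which 27.6%, 32.6% and 30.8% were higher.

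The other genes of these pathways were followed in 6 lists, with 127 tested genes. With MLX-WT 46 rose and 59 fell (82.7%, against 70.3% of all genes), with MLX-DN 45 rose and 61 fell (83.5%, against 81.4%) and with MLX shRNA 37 rose and 59 fell (75.6%, against 70.1%). Centring each library on its median changed these splits to 53 and 43, 55 and 55, and 44 and 53. Over all tested genes the splits went from 3300 higher and 5100 lower to 4511 and 3775 with MLX-WT, from 3892 and 5831 to 5017 and 4660 with MLX-DN, and from 3674 and 4695 to 4675 and 3716 with MLX shRNA. The median difference of the 127 genes was -0.07, -0.06 and -0.08. Directions given for MLX-WT and MLX-DN are against the GFP control. Some did not pass the test against the NT shRNA: Lpar1, Lrp1 and Mfsd2a in MLX-WT and Pdk4, Pparg and Ucp2 in MLX-DN. Against the NT shRNA the opposite direction passed the test in MLX-WT for Angptl4, Got2, Lpar4, Mboat2, Pdk4, Pltp, Pparg, Ptger1 and Ptgs1, and in MLX-DN for Agpat3, Angptl4, Got2, Lpar1, Mfsd2a and Ptger1.

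In the lipoprotein list 13 of 16 tested genes changed with MLX-WT, 5 up and 8 down, and likewise with MLX-DN, and 11 with MLX shRNA, 4 up and 7 down. Centring made the splits for MLX-DN and MLX shRNA even, at 6 and 6. Pltp, the phospholipid transfer protein, averaged 51.0 FPKM in the GFP control and fell to 19.1 in the MLX-WT group (log2 difference -1.33) and 9.98 in the MLX-DN group (-2.15), and in the MLX shRNA group to 6.26 from 11.2 with NT shRNA (-0.67). Apoc1, next to Apoe in the genome, rose with MLX-WT from 0.207 to 2.44 FPKM (1.01). Lrp1, a large endocytic receptor for apolipoprotein E, fell in all 3 (-0.52, -0.71 and -0.88). With MLX-WT it averaged 74.7 FPKM, against 72.6 with NT shRNA and 108 in the GFP control. Scarb1, the HDL receptor, fell with MLX-WT (-0.73) and MLX-DN (-0.86).

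Of 16 tested genes of fatty acid uptake and binding, 7 rose and 7 fell with MLX-WT, 8 rose and 6 fell with MLX-DN, and 3 rose and 8 fell with MLX shRNA. Centring turned the MLX-WT split to 7 higher and 4 lower. Got2, an aspartate aminotransferase also described as a plasma membrane fatty acid binding protein, rose with MLX-WT (0.79) and MLX-DN (1.09), but the NT shRNA at 164 FPKM was above both (127 and 156) and the GFP control was at 72.3. Crabp2, a retinoic acid carrier of the FABP family, fell with MLX shRNA to 14.4 from 42.1 FPKM (-1.43). Dbi, the acyl-CoA binding protein, rose with MLX-DN to 268 from 172 FPKM (0.63).

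Droplet and lipolysis genes numbered 22, of which 7 rose and 9 fell with MLX-WT, 6 rose and 11 fell with MLX-DN, and 6 rose and 8 fell with MLX shRNA. With MLX-WT and MLX shRNA the lean to lower values did not hold under another scaling. Centring gave 10 higher and 5 lower with MLX-WT and 10 and 8 with MLX shRNA, and quantile normalization 8 and 6, and 9 and 8. With MLX-DN more genes stayed lower, at 8 higher and 10 lower under either scaling. G0s2, an inhibitor of the lipase ATGL, fell in all 3 (-1.26, -1.35 and -1.03), from 68.5 FPKM in the GFP control and 31.9 with NT shRNA. Mgll, monoglyceride lipase, fell in all 3 too (-1.73, -1.08 and -0.60) and was lowest with MLX-WT, at 0.572 FPKM. Agpat3, a lysophosphatidic acid acyltransferase, fell with MLX-DN (-0.75) to 27.0 FPKM and rose with MLX shRNA (0.61) over NT shRNA's 21.8.

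Among 35 tested lysolipid genes 12 rose and 17 fell with MLX-WT, 11 rose and 19 fell with MLX-DN, and 12 rose and 16 fell with MLX shRNA. After centring the MLX-WT split was 15 and 14. Mboat2, a lysophospholipid acyltransferase, rose in all 3 (0.48, 1.43 and 0.57), from 4.53 FPKM in the GFP control and 12.5 with NT shRNA. Mfsd2a, a transporter of lysophosphatidylcholine, rose with MLX-WT (0.91) and MLX-DN (0.84), while its mean with NT shRNA, 14.4 FPKM, was as high as with MLX-WT. Pla1a, a phospholipase that makes lysophosphatidylserine, rose with MLX-WT to 16.1 from 7.98 FPKM (0.86). Pla2g4a, cytosolic phospholipase A2, fell with MLX-WT (-0.92) and MLX shRNA (-0.63).

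In the prostaglandin list of 18 tested genes 8 rose and 7 fell with MLX-WT, 7 rose and 7 fell with MLX-DN, and 6 rose and 9 fell with MLX shRNA. Ptger1, a prostaglandin E2 receptor gene, rose with MLX-WT (0.63) and MLX-DN (1.11) over 9.37 FPKM, and NT shRNA stood at 27.5. Ptgfrn, a membrane protein that lowers ligand binding by the prostaglandin F receptor, fell most with MLX shRNA (-1.10), and Ptgds, a prostaglandin D synthase, rose there (1.09).

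PPARs and LXRs are nuclear receptors that switch on genes such as Lpl, Cd36, Fabp4, Plin2 and Apoe. Of 21 other tested receptors and targets, 8 rose and 11 fell with MLX-WT and 9 rose and 10 fell with MLX-DN. With MLX shRNA 6 rose and 11 fell. Centring changed these splits to 8 and 8, 10 and 10, and 7 and 10. Pparg itself averaged 1.68 FPKM in the GFP control and rose with MLX-WT to 2.67 (0.35) and with MLX-DN to 3.21 (0.50), but NT shRNA was at 3.30, above both, and MLX shRNA fell from it (-0.29). Pdk4, a kinase that holds back glucose oxidation, fell in all 3 (-0.45, -1.20 and -0.30), as did Ucp2, a mitochondrial carrier (-1.13, -0.44 and -0.42). Slc25a20, another of these targets, rose in all 3 (0.15, 0.13 and 0.62). Angptl4 rose with MLX-WT (0.41) and MLX-DN (0.93). Cpt1a, which admits fatty acids to mitochondria, rose with MLX-WT (0.15) and fell with MLX-DN (-0.76) and MLX shRNA (-0.66). Lpl, Apoe, Enpp2 and Tmem86a took the same directions, while Cd36 fell with MLX-WT (-1.65).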

How the data were processed

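Messenger RNA was measured in 15 C2C12 libraries, grouped by their labels. Per the labels' protocols, poly(A) RNA was made into libraries with a stranded kit. The submitters' processing notes name CASAVA, TopHat2, STAR and the mouse build mm9, without roles or versions. The authors deposited log2 FPKM values. The lowest was exactly 1 in each library, so the scale was taken to be log2(FPKM + 2), with FPKM as 2 to that power, minus 2. Depth was estimated by finding the scale at which low FPKM values of 14094 genes with 1 RefSeq length become whole reads: 58.9% to 64.7% came within 0.05 of one, against 21.2% to 26.5% at other depths. The floor of 3 reads was 0.0181 to 0.0405 FPKM at 2000 bases, for counting error only.

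The 11945 genes that reached 1 FPKM in no fewer than 3 of 15 libraries were fitted with limma (3.58.1, R 4.3.3), 1 mean per group, with a variance trend, two-sided, and Benjamini-Hochberg adjustment within each comparison (threshold 0.05). SEs come from that fit. Its trial on simulated data changed far fewer genes than were called here, so it does not cover shifts this wide. The 10 genes and the lists were chosen with earlier results of these data known. Other genes named are up to 3 of largest change among called, non-overlapping genes of each list with a mean FPKM of at least 2 in the higher group, fixed partners, and the 2 of nearest pattern. Not every gene so selected is printed. Overlaps between exons come from the GRCm38 annotation. Alternatives were other offsets, filters, scalings and variance models, the 2 groups alone, a replicate block, and each library left out in turn.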

Additional observations from a re-analysis of the deposited data

How the results depend on the processing

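Across 21 counts of called genes (all genes, the tested lipid uptake genes and the 6 lists, in 7 comparisons), 315 recomputed counts stayed within 1.5 times the reported one. Many had little room to rise that far, as 8400 of 11945 genes were already called between MLX-WT and its control. Direction was not part of this measure, and centring turned that comparison from 3300 higher and 5100 lower to 4511 and 3775. Of 945 recomputed differences of the 9 genes 14 changed sign, 0 of them of a difference that had passed the test. These were Cd36 and Hpgd for MLX shRNA, Enpp2 and Hpgd for MLX-DN and Fabp5 for MLX-WT, each against NT shRNA, and Plin2 between the controls, with values of the other sign of at most 0.08. In all, 776 moved by less than 1 SD and 169 by more, 91 of these with another offset and 78 with another scaling. Only another offset or scaling could move a difference that far. Other filters and variance models, the 2 groups alone and the block leave a difference of group means unchanged. Leaving out 1 of 3 libraries moves it by less than 1 SD whatever the values, so the 776 are no measure of stability. Leaving out 1 library gave 6 to 7 of 9 genes called for MLX shRNA and 6 to 8 for MLX-DN against NT shRNA, and the same count in the other 5 comparisons. With a replicate block 8427 genes were called between MLX-WT and its control (8400 without), 9754 between MLX-DN and its control (9723) and 8394 between MLX shRNA and its control (8369), and the block changed no count of the 9. Deviations of same-numbered libraries correlated weakly (-0.088 to 0.151), and those of other numbers gave -0.188 to 0.158. Between MLX-WT and the GFP control 5 libraries deviated most like the one of their own number, and between MLX-WT and NT shRNA 0 did. Whether the numbers pair the libraries cannot be told from this. Depth limits Fabp4 in all groups, Enpp2 with MLX shRNA and Hpgd outside the GFP control and MLX-WT. The FPKM table gives no counts to test.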

Other observations

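The genes beside Apoe and Fabp4 in the genome were read after the values of those genes were seen. Apoc1 averaged 2.44 ± 0.408 FPKM (SD, n = 3) with MLX-WT, 0.207 ± 0.0883 in the GFP control and 0.374 ± 0.104 with NT shRNA, and at most 0.0390 in any MLX-DN or MLX shRNA library, so that it was highest in the same group as Apoe. Apoc4, in the same cluster, was listed at 0 in all 15 libraries and Apoc2 at no more than 0.149 FPKM. Tomm40, on the other side of Apoe, averaged 38.9 FPKM with MLX-WT and 47.6 in the GFP control, and so did not follow Apoe. Near Fabp4, Fabp9 and Fabp12 were listed at 0 throughout, and Pmp2 reached at most 0.0965 FPKM.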
